A study of Homo sapiens with 6 samples.

Results

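The human genome is annotated with a great many non-coding genes that lie across, inside or just beside protein-coding genes, and 295 of them were expressed in ES2 cells at an average of at least 2 CPM (a gene's count scaled to a library total of 1000000) over the 6 libraries. They were taken from the 6657 genes of the 58735 in the table that carried the biotype antisense, sense_overlapping or sense_intronic, and they comprised 250 antisense, 25 sense_intronic and 20 sense_overlapping genes. ES2 is an ovarian cancer line, labelled here as high-grade serous carcinoma, and it was transfected with a control siRNA (genotype WT, 3 libraries) or with siRNAs against UAP1 (labelled UAP1 knockdown, 3 libraries). UAP1 makes UDP-N-acetylglucosamine, the sugar donor for glycosylation. All cells went through the same transfection, the medium was replaced after 6 hours, and RNA was taken after 48 hours. More than 1 UAP1 siRNA is named and the labels do not say which of them a library received, so that a response to UAP1 loss and a response to an siRNA sequence cannot be told apart. The choice of members used their mean level over both groups and not the difference between groups. AC136475.2 (2.01 CPM), SERTAD4-AS1 (2.03 CPM) and LBX2-AS1 (2.04 CPM) lay just inside the limit, and AP001033.2 (1.99 CPM), PXN-AS1 (1.98 CPM) and AC004130.1 (1.98 CPM) just outside it.

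An antisense gene is read from the opposite strand of a coding gene, so that the 2 RNAs share sequence in complementary form wherever their exons meet. A sense_intronic gene lies in an intron on the same strand, and a sense_overlapping gene is annotated on the same strand around or next to a coding gene. Some such RNAs are made from the same promoter region as the coding gene, some act on the neighbouring gene or in the cytoplasm, some carry microRNAs or small nucleolar RNAs in their introns or exons, and for many no function is known.

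The libraries held between 21267240 and 25972582 counts, and the members took a mean of 0.225% ± 0.0132 (SD, n = 3) of them in control cells and 0.219% ± 0.00782 (SD, n = 3) in siUAP1 cells. The difference was within the spread (exact permutation test, two-sided, p = 0.5, where 3 against 3 cannot go below 0.1). UAP1 itself was at 345, 362 and 437 CPM in the control libraries and at 22.0, 23.4 and 24.8 CPM in the siUAP1 libraries, as the labels say. Of the ovarian carcinoma markers, KRT7 (421.7 CPM), KRT8 and KRT18 were high, PAX8 (1.24 CPM) and WT1 (1.89 CPM) were low, and MUC16, SOX17 and FOLR1 had no counts. VIM, FN1 and CDH2 were high, the leukocyte and erythroid markers were at or near 0, and of the endothelial markers CDH5 stood at 146.6 CPM with PECAM1 at 1.58 and VWF at 0.591 CPM. In bulk RNA, fewer cells that express a gene and less RNA per cell cannot be told apart.

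How reads were shared between overlapping genes bears on every value below, and it was checked in the table. Of the non-coding genes of these biotypes whose exons lay wholly inside exons of opposite-strand genes, with a coding partner at 10 CPM or more, 217 of 217 had 0 counts in all 6 libraries. Among non-coding genes that shared no exonic base and had such a partner, 164 of 891 (18.4%) had 0 counts. A member's counts therefore come almost entirely from the exonic bases that no other gene covers. Members had a median of 6.51% of their exonic bases inside exons of other genes, 90 had none, 36 had over 30% and the highest share was 76.6%. The labels do not state whether strand was used, but exons shared with the opposite strand gave no counts, so the table did not separate overlapping genes by strand, and reads from a gene and its antisense partner cannot be told apart.

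Most members were expressed at a low level. The median was 4.08 CPM, 177 members lay between 2 and 5 CPM, 47 reached 10 CPM and 5 reached 50 CPM. Per length, the median was 1.93 FPKM against 6.87 FPKM in the 11286 coding genes of at least 2 CPM. FGD5-AS1, a cytoplasmic long non-coding RNA, had the highest mean at 140.8 CPM, followed by SNHG7 (72.8 CPM), LOXL1-AS1 (68.1 CPM), GABPB1-AS1 (61.8 CPM) and AP002387.1 (61.2 CPM). On the FPKM scale the order changed: AP002387.1 led with 89.3 FPKM, ahead of AC099850.3 (61.3 FPKM) and FGD5-AS1 (27.2 FPKM). AP002387.1 and AC099850.3 are short genes inside DHCR7, which encodes the last enzyme of cholesterol synthesis, and PRR11, a gene linked to the cell cycle. FPKM divides by the full exonic length, including bases that gave no counts, so it understates members with much shared sequence.

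Of the 10 members of highest mean CPM, 8 did not pass with or without pairs. FGD5-AS1 was at 139.9, 140.6 and 155.4 CPM in control and at 128.1, 139.3 and 141.8 CPM in siUAP1 cells, with overlapping groups and a log2 fold change of -0.09 ± 0.05 (SE). SNHG7, a host of small nucleolar RNAs, was at 85.9, 69.5 and 65.4 CPM in control and at 74.8, 71.3 and 69.7 CPM in siUAP1 cells. GABPB1-AS1, which starts across the 5′ end of GABPB1, a subunit of the transcription factor GABP, followed the replicate number: it was at 58.6, 93.6 and 41.0 CPM in control replicates 1 to 3 and at 58.0, 77.2 and 42.1 CPM in siUAP1 replicates 1 to 3. LOXL1-AS1 and ZFAS1 passed with pairs in the test described next, and the 8 that did not (FGD5-AS1, SNHG7, GABPB1-AS1, AP002387.1, NNT-AS1, AL365181.3, THAP9-AS1 and HCG18) had log2 fold changes from -0.12 for THAP9-AS1 to 0.14 for NNT-AS1.

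With the groups compared without regard to replicate number, 1 member, AL596244.1, had an adjusted p under 0.05 in edgeR's quasi-likelihood test, against 17 of all 15768 genes tested (0.108%). Libraries with the same replicate number deviated from their group means together, and with the number as a block (3 pairs) 22 of the 295 members passed, 12 higher and 10 lower in siUAP1 cells. That is 7.46% of the members against 16.2% of all genes tested (9.07% higher and 7.15% lower). In the text that follows, "rose" and "fell" refer to this fit with pairs, and all adjusted p-values are Benjamini-Hochberg values over all genes tested in edgeR. At an unadjusted p under 0.05, 10 members (3.39%) passed without pairs against 7.13% of all genes, and 49 (16.6%) with pairs against 28.1%. The members' median log2 fold change was 0.01 against -0.003 over all genes tested, and the median size of the change was 0.15 against 0.13. The median SE of a member was 0.18 against 0.09. Among genes at 2 to 5 CPM, 4 of 177 members (2.26%) and 87 of 946 coding genes (9.2%) were called. Between 5 and 20 CPM the shares were both 14.7% (15 of 102 members and 380 of 2593 coding genes), and between 20 and 1000 CPM they were 18.8% (3 of 16) and 22.7%. The CPM of the groups did not overlap in 23 members (7.8%), against 12.9% of all genes tested. The 12 called members of smallest p were chosen for description by a fixed rule, and the other 10 are described because they were called.

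AL596244.1 showed the largest change of any member. It is a sense_overlapping gene with a single exon of 3779 bases on chromosome 9 (121815674 to 121819452, minus strand, GRCh38), and it lies on the same strand 2476 bases beyond the 3′ end of TTLL11, which encodes an enzyme of the tubulin tyrosine ligase-like family that modifies tubulin. It was at 27.0, 25.4 and 26.9 CPM in control and at 9.44, 7.78 and 8.22 CPM in siUAP1 cells. The groups were far apart, with SDs of 0.914 and 0.861 CPM (n = 3). It fell by 1.64 on the log2 scale (SE 0.10, adjusted p = 8.11e-12), or 3.12-fold, and it passed without pairs too (-1.64 ± 0.13, adjusted p = 0.00518), although not without siUAP1 replicate 2 (adjusted p = 0.0642, against 0.0122 to 0.0399 without any other library). TTLL11 was at 20.2, 14.6 and 14.9 CPM in control and at 8.05, 7.89 and 8.11 CPM in siUAP1 cells, also without overlap. It fell by 1.03 (SE 0.12, adjusted p = 4.06e-07 with pairs and 0.0796 without). AL596244.1 and TTLL11 are separate genes in the annotation, and whether their reads come from 1 RNA was not tested.

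LOXL1-AS1 fell while its coding partner did not. It starts across the 5′ end of LOXL1, the lysyl oxidase-like enzyme that cross-links elastin, on chromosome 15 (73908071 to 73928248, minus strand). LOXL1-AS1 was at 82.4, 71.2 and 88.6 CPM in control and at 60.5, 48.2 and 57.8 CPM in siUAP1 cells, without overlap. It fell by 0.54 (SE 0.05, adjusted p = 7.37e-08 with pairs and 0.24 without). LOXL1 was at 109, 129 and 136 CPM in control and at 130, 138 and 144 CPM in siUAP1 cells, with a log2 fold change of 0.14 ± 0.05 (adjusted p = 0.0517 with pairs). The ratio of LOXL1-AS1 to LOXL1 was lower in siUAP1 cells by 0.68 on the log2 scale (SE 0.07, limma with pairs, adjusted p = 0.000199; 0.386 without pairs). DESeq2 called LOXL1-AS1 both with and without pairs. With pairs DESeq2 called 8 members, against 10.3% of all genes it tested, and without pairs it called LOXL1-AS1 and AL596244.1, against 1.11%.

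AC099850.3 and PRR11 fell together. AC099850.3 has an exonic length of 321 bases, lies inside PRR11 on the other strand (chromosome 17, 59202677 to 59203829) and shares 30.2% of its exonic bases with other genes. It was at 18.8, 24.3 and 28.2 CPM in control and at 12.6, 17.5 and 17.4 CPM in siUAP1 cells, and the groups did not overlap. It fell by 0.58 (SE 0.09, adjusted p = 3.06e-05 with pairs and 0.48 without). PRR11 was at 113, 157 and 173 CPM in control and at 88.3, 118 and 107 CPM in siUAP1 cells, and it fell by 0.49 (SE 0.06, adjusted p = 6.28e-07). Reads from PRR11 introns and from AC099850.3 cannot be told apart, because strands were not separated.

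KRT7-AS and KRT7 rose together. KRT7-AS lies inside KRT7, the gene of a keratin of simple epithelia, on the other strand (chromosome 12, 52245048 to 52247448), and it shares 16.7% of its exonic bases. It was at 7.29, 5.07 and 3.58 CPM in control and at 14.1, 6.58 and 6.14 CPM in siUAP1 cells. Each siUAP1 library was above the control of the same number, although the groups overlapped. KRT7-AS rose by 0.71 (SE 0.14, adjusted p = 0.000952 with pairs and 0.766 without) and KRT7 by 0.58 (SE 0.05, adjusted p = 2.18e-09 with pairs), and their ratio did not pass (0.11 ± 0.17, limma with pairs, adjusted p = 0.902). The mean over the 6 libraries was 421.7 CPM for KRT7 and 7.13 CPM for KRT7-AS. Strands were not separated, so reads from KRT7 introns and from KRT7-AS cannot be told apart.

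TGFB2-AS1 and TGFB2, the gene of a transforming growth factor beta ligand, are read away from each other on chromosome 1, and both rose. TGFB2-AS1 (218344196 to 218345678, minus strand) was at 5.74, 2.67 and 3.34 CPM in control and at 9.69, 5.16 and 5.06 CPM in siUAP1 cells. Each siUAP1 library was again above its control, with overlap between the groups. TGFB2-AS1 rose by 0.76 (SE 0.16, adjusted p = 0.00145 with pairs and 0.744 without). TGFB2 was at 47.7, 35.6 and 26.3 CPM in control and at 78.6, 50.3 and 44.0 CPM in siUAP1 cells, and it rose by 0.65 (SE 0.06, adjusted p = 3.45e-08 with pairs and 0.592 without). In the count table the starts of the 2 genes are 557 bases apart.

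**Figure D1:**
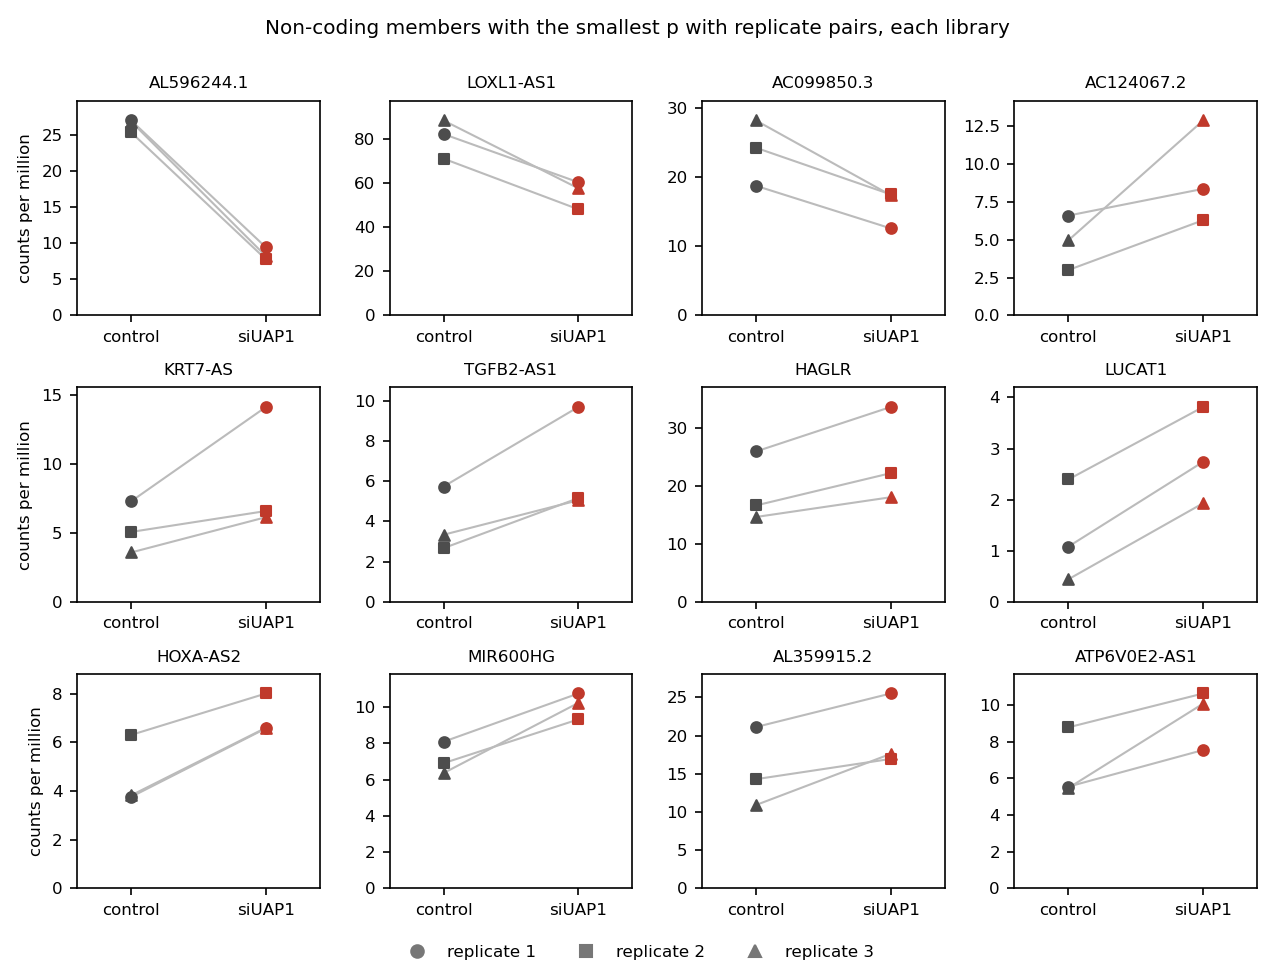
CPM of the 12 called members of smallest p in each library (y axis, linear from 0; x axis, group), with a line joining the control and siUAP1 library of the same replicate number. AL596244.1 falls from 25.4 to 27.0 CPM to 7.78 to 9.44 CPM with no overlap, whereas KRT7-AS, TGFB2-AS1 and LUCAT1 rise within each pair while the groups overlap.

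For TGFB2-AS1, TGFB2 and KRT7-AS the promoter windows are printed, because the first pair starts in one region and moved in the same direction, and KRT7-AS starts inside the gene it moved with. Each window runs from 250 bases before to 50 bases after the RefSeq start (GRCh38.p14, 5′ to 3′ on the gene's own strand). Capitals mark matches to 5 short words searched on both strands. The TATA word is TATAAA. The word of the AP-1 factors is TGANTCA. The CRE word of the cyclic AMP response element is TGACGTCA. The word of the TEAD factors is GGAATG. The GC box word of the SP1 factor is GGGCGG.
TGFB2-AS1: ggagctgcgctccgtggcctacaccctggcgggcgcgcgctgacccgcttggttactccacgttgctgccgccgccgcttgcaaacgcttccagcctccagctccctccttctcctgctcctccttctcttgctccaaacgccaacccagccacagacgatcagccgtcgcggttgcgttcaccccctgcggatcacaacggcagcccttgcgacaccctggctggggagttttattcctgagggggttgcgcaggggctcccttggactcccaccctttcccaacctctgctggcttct
TGFB2: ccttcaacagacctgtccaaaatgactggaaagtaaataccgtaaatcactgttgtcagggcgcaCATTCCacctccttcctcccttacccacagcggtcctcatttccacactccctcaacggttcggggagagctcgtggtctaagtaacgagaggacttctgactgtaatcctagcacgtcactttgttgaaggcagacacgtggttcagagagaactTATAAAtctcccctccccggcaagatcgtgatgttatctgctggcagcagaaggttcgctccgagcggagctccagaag
KRT7-AS: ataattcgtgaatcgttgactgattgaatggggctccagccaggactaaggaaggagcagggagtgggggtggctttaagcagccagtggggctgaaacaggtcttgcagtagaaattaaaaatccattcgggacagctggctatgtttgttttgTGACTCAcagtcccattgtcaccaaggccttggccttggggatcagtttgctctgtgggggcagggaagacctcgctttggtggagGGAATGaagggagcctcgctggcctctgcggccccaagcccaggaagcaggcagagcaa
These are the windows chr1:218345629-218345928 (minus strand), chr1:218345086-218345385 (plus strand) and chr12:52247399-52247698 (minus strand). The RefSeq start of TGFB2 lies 899 bases from the start in the count table, so in RefSeq the 5′ ends of TGFB2 and TGFB2-AS1 overlap. The TGFB2-AS1 window held none of the words. The TGFB2 window held the TATA word 29 bases before the start and, on the other strand, the TEAD word 185 bases before it. The KRT7-AS window held the AP-1 word 95 bases before the start, as TGACTCA, and the TEAD word 9 bases before the start. The AP-1 word, with any base at N, matches this stretch on both strands. Of all 35116 promoter windows of this length, 11.5% held the TATA word, 7.71% the AP-1 word, 1.85% the CRE word, 14% the TEAD word and 45.0% the GC box word. A match is a string of letters and not a measured binding site. RefSeq windows matched 107 of the 295 members, too few to compare the members' promoters with others.

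HAGLR and HOXA-AS2, antisense genes of the HOX clusters, rose. The HOX clusters hold the homeobox genes that give cells their position along the body axis, and antisense RNAs are read from between them. HAGLR, in the HOXD cluster (chromosome 2, 176164051 to 176188958, minus strand), was at 25.96, 16.6 and 14.7 CPM in control and at 33.6, 22.2 and 18.1 CPM in siUAP1 cells, higher in each pair with overlapping groups. It rose by 0.37 (SE 0.08, adjusted p = 0.00274 with pairs and 0.916 without). HOXA-AS2, in the HOXA cluster inside the annotated span of HOXA3, was at 3.76, 6.31 and 3.82 CPM in control and at 6.57, 8.01 and 6.60 CPM in siUAP1 cells, without overlap. It rose by 0.63 (SE 0.15, adjusted p = 0.0055), and HOXA3 had a log2 fold change of -0.19 ± 0.11 (adjusted p = 0.295). Of the 18 antisense genes listed for the HOX clusters 12 were tested, 2 rose and none fell with pairs (16.2% of all genes tested were called), and the median log2 fold change was 0.03 against -0.003 over all genes. HOTAIRM1, HOXA11-AS, HOXB-AS1 and HOXB-AS3, the other members of the list, had log2 fold changes from -0.21 for HOXA11-AS to 0.03 for HOTAIRM1 and were not called. None of the 12 passed without pairs.

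LUCAT1 had the largest rise, at a low level. LUCAT1 is a long non-coding RNA described in lung cancer and in stress responses, on the strand opposite ADGRV1 on chromosome 5. It had 23, 60 and 11 counts in control and 65, 99 and 50 counts in siUAP1 cells, which is 1.08, 2.39 and 0.443 CPM against 2.74, 3.81 and 1.93 CPM. Each pair rose and the groups overlapped. The log2 fold change was 1.22 (SE 0.28, adjusted p = 0.00335 with pairs and 0.754 without). LUCAT1 is a member through its siUAP1 libraries, since the control mean was 1.31 CPM. In all, 25 members had a group mean under 2 CPM, and 2 of them were called (LUCAT1 and AC136475.2). Of the 270 members with both means at 2 CPM or more, 11 rose and 9 fell. Over all genes tested, 16.2% were called with pairs.

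AC124067.2 and MIR600HG were the called sense_intronic members, and both rose. AC124067.2 lies in an intron of another non-coding gene, LINC01605. It was at 6.58, 2.99 and 4.95 CPM in control and at 8.34, 6.28 and 12.9 CPM in siUAP1 cells, with overlap. It rose by 0.93 (SE 0.17, adjusted p = 0.000241), and LINC01605, with a log2 fold change of 0.10 ± 0.08, was not called (adjusted p = 0.475). MIR600HG, which contains the gene of the microRNA miR-600 and overlaps the 3′ part of STRBP, was at 8.09, 6.91 and 6.36 CPM in control and at 10.7, 9.32 and 10.2 CPM in siUAP1 cells, without overlap. It rose by 0.51 (SE 0.13, adjusted p = 0.00578 with pairs and 0.471 without), and STRBP had a log2 fold change of -0.13 ± 0.06 (adjusted p = 0.15).

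MicroRNA genes lay inside 8 members, and the mature forms for 4 of them are printed, MIR600HG as the host that was called and the others because their microRNAs are widely studied. Capitals mark the seed, bases 2 to 8, with which a microRNA pairs to its targets (RefSeq, GRCh38.p14).
hsa-miR-600 in MIR600HG: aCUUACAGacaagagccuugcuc
hsa-miR-15a-5p in DLEU2: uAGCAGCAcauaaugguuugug
hsa-miR-16-5p in DLEU2: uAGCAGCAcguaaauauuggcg
hsa-miR-23a-3p in AC020916.1: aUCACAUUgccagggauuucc
hsa-miR-27a-3p in AC020916.1: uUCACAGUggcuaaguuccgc
hsa-miR-24-3p in AC020916.1: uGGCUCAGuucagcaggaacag
hsa-miR-31-5p in MIR31HG: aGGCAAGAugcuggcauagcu
The microRNAs miR-15a-5p and miR-16-5p share the seed AGCAGCA, and the others each have a seed of their own. DLEU2 was at 2.26, 4.87 and 5.03 CPM in control and at 2.99, 5.04 and 5.44 CPM in siUAP1 cells (log2 fold change 0.17 ± 0.18, adjusted p = 0.595). AC020916.1 was at 12.3, 15.3 and 10.0 CPM in control and at 13.02, 8.89 and 12.1 CPM in siUAP1 cells (-0.14 ± 0.14, adjusted p = 0.562). MIR31HG was at 3.29, 2.71 and 3.18 CPM in control and at 3.75, 1.62 and 1.74 CPM in siUAP1 cells (-0.44 ± 0.24, adjusted p = 0.238). The groups of these 3 hosts overlapped. GABPB1-AS1, ENTPD1-AS1, SNHG20 and AC019080.1, which contain less studied microRNA genes, were not called either. The libraries measured the host genes, and mature microRNAs were not analysed here.

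ZFAS1 was the snoRNA host among the members that changed. It carries the SNORD12 family of small nucleolar RNAs, which guide modification of ribosomal RNA, and it starts at the 5′ end of ZNFX1. ZFAS1 was at 45.5, 52.7 and 46.6 CPM in control and at 40.9, 41.7 and 42.1 CPM in siUAP1 cells, without overlap. It fell by 0.21 (SE 0.06, adjusted p = 0.0199 with pairs and 0.712 without), and ZNFX1 had a log2 fold change of 0.05 ± 0.05. Exons of other genes cover 46.9% of its exonic bases. Of 25 snoRNA host genes tested, none rose and 3 fell with pairs, ZFAS1, SNHG3 (-0.19 ± 0.06) and SNHG14 (-0.17 ± 0.05), with a list median of -0.08. The 6 hosts that are members (SNHG7, SNHG10, SNHG12, SNHG20, SNHG21 and ZFAS1) had a median of -0.14. A list made under the name of well-studied antisense RNAs also holds genes that are not antisense, and 30 of its genes were tested. Of these, 1 rose (PVT1, 0.25 ± 0.08) and 2 fell (OIP5-AS1, -0.22 ± 0.05, and ZFAS1), with a list median of -0.05. PVT1 and OIP5-AS1 are not members. Among the 12 that are members, none rose and only ZFAS1 fell, with a median of -0.11. Over all genes tested 16.2% were called with pairs, and none of either list passed without pairs.

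The other antisense members that rose were ATP6V0E2-AS1, AL359915.2, AC089983.1, AC105942.1 and AP000759.1. ATP6V0E2-AS1 starts across the 5′ end of ATP6V0E2, a subunit of the proton pump of lysosomes, and moved against it. It was at 5.55, 8.78 and 5.47 CPM in control and at 7.54, 10.6 and 10.1 CPM in siUAP1 cells, overlapping. ATP6V0E2-AS1 rose by 0.53 (SE 0.14, adjusted p = 0.00883), and ATP6V0E2 fell by 0.29 (SE 0.06, adjusted p = 0.000896). Their ratio is among those that did not pass. AC089983.1, inside TXNRD1, had 143, 184 and 187 counts in control and 261, 240 and 259 counts in siUAP1 cells, and its CPM did not overlap between the groups. It rose by 0.48 (SE 0.13, adjusted p = 0.00955), and TXNRD1, a thioredoxin reductase, rose by 0.26 (SE 0.05, adjusted p = 0.000209). AL359915.2, across the 5′ end of WARS2, rose by 0.39 (SE 0.10, adjusted p = 0.00634) while WARS2 stood at -0.003 ± 0.09. AC105942.1, which starts 288 bases from CNN3 in the other direction, was at 15.3, 13.6 and 15.5 CPM in control and at 17.2, 18.8 and 18.4 CPM in siUAP1 cells, without overlap, and rose by 0.30 (SE 0.10, adjusted p = 0.0327). CNN3, the gene of an actin-binding calponin, had a log2 fold change of -0.11 ± 0.05. AP000759.1, with no coding overlap, rose by 0.49 (SE 0.16, adjusted p = 0.0384), from 3.78 to 4.63 CPM in control to 5.02 to 6.62 CPM in siUAP1 cells.

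The other antisense members that fell were VPS9D1-AS1, NR2F1-AS1, RGMB-AS1, AC136475.2, AC090673.1 and MHENCR. NR2F1-AS1 starts across the 5′ end of NR2F1, an orphan nuclear receptor, and both differed widely between replicate numbers. NR2F1-AS1 was at 18.1, 15.9 and 11.5 CPM in control and at 14.1, 12.3 and 8.92 CPM in siUAP1 cells, and NR2F1 at 86.2, 52.1 and 28.7 CPM against 74.1, 39.6 and 21.5 CPM. Within each pair both were lower in siUAP1 cells. NR2F1-AS1 fell by 0.36 (SE 0.10, adjusted p = 0.0133 with pairs and 0.857 without) and NR2F1 by 0.33 (SE 0.06, adjusted p = 0.000363 with pairs). RGMB-AS1, inside the co-receptor gene RGMB, showed the same pattern, at 21.3, 18.3 and 10.4 CPM in control and at 15.8, 13.6 and 9.53 CPM in siUAP1 cells. It fell by 0.34 (SE 0.10, adjusted p = 0.0218), and RGMB fell by 0.29 (SE 0.05, adjusted p = 0.00043). VPS9D1-AS1 fell by 0.41 (SE 0.11, adjusted p = 0.0122), with VPS9D1 at 0.12 ± 0.10. AC090673.1, inside the chromatin protein gene HMGA2, fell by 0.65 (SE 0.21, adjusted p = 0.0331), with HMGA2 at 0.15 ± 0.05 (adjusted p = 0.0615). AC136475.2, inside IFITM2, had 46 to 87 counts in control and 22 to 57 in siUAP1 cells, and fell by 0.85 (SE 0.26, adjusted p = 0.0248). MHENCR, 186 bases from the start of GMEB2, fell by 0.35 (SE 0.12, adjusted p = 0.0454), although the third pair was level (10.7 CPM for control, 10.8 CPM for siUAP1).

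Leaving out 1 pair at a time showed which calls held with fewer libraries. Such fits have less power over the whole table, so a lost call need not rest on the pair left out. The shares of all genes called in these fits are not given here. LOXL1-AS1, HAGLR, AC099850.3, AL596244.1, KRT7-AS and TGFB2-AS1 were called in all 3 such fits. Of the 22 called members, 16 were called without the first pair, 14 without the second and 9 without the third. AP000759.1 and AC136475.2 were called in none of these fits. Without the third pair, AC124067.2, LUCAT1, HOXA-AS2, MIR600HG, AL359915.2 and ATP6V0E2-AS1 were among the 13 lost, and AL359915.2 moved from 0.39 to 0.26. MHENCR moved from -0.35 to -0.19 without the second pair and to -0.53 without the third, and AC090673.1 from -0.65 to -0.43 without the first. The sign was the same in all 3 pairs for 21 of the 22, the exception being MHENCR.

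**Figure D2:**
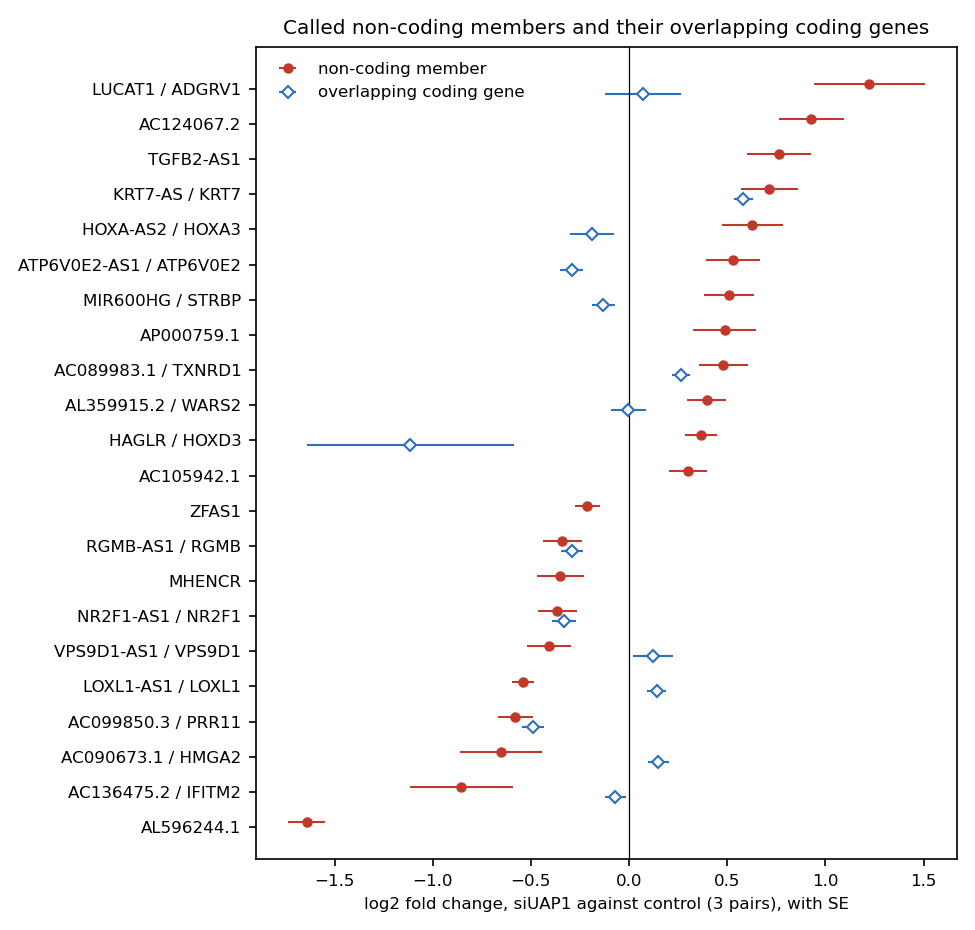
Log2 fold change of siUAP1 against control (x axis, fit with pairs, bars ± SE) of the 22 called members (filled circles) and, where one was tested, of the coding gene each overlaps (open diamonds). PRR11, RGMB, NR2F1, TXNRD1 and KRT7 moved in the direction of their non-coding gene, ATP6V0E2 moved against it, and the other 9 coding genes were not called.

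Across all members, 6 had both the non-coding gene and its overlapping coding gene called. A protein-coding gene overlapped 246 members, on the opposite strand for 210 and on the same strand for 36. For 63 members there were several, of which the one with the longest overlap was taken. For 225 members this partner was tested, as 219 distinct genes with a median of 35.3 CPM. With pairs, 24 partners rose and 21 fell, 20.5% against 16.2% of all genes tested and 22.7% of coding genes at 20 to 1000 CPM. None passed without pairs in edgeR, where 0.108% of all genes did. Of the 15 called members with a tested partner, 5 had a partner called in the same direction, 1 had one called in the opposite direction and 9 had a partner that was not called. Of the 45 members whose partner was called, 6 were called themselves. Fold changes of members and partners had the same sign in 121 of 225 pairs, and Pearson's r across these pairs, given as a description because all rest on the same 6 libraries, was 0.09.

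In the other 39 of these 45 the coding gene was called and the member was not. A call in 1 gene and none in the other is not a test of a difference between them. Of the pairs named here, only THAP9-AS1 against SEC31A passed in the test of the ratio with pairs, described next. DHCR7 rose by 0.38 (SE 0.05) at a mean of 1799 CPM, while AP002387.1 inside it, at 65.1, 56.0 and 57.1 CPM in control and at 66.4, 56.3 and 66.4 CPM in siUAP1 cells, had a log2 fold change of 0.09 ± 0.06 (adjusted p = 0.366). SEC31A, a coat protein of vesicles leaving the endoplasmic reticulum, rose by 0.43 (SE 0.05), while THAP9-AS1, on the same strand, was at 31.6, 37.2 and 34.8 CPM in control and at 29.8, 33.4 and 31.7 CPM in siUAP1 cells (-0.12 ± 0.07, adjusted p = 0.249). THAP9, the gene on the other strand after which THAP9-AS1 is named, averaged 3.18 CPM and was not called (-0.13 ± 0.21, adjusted p = 0.54). CCNY (cyclin Y) fell by 0.67 (SE 0.05) with AL117336.3 inside it at -0.04 ± 0.16, and RASSF8 fell by 0.63 (SE 0.05) with RASSF8-AS1 at its 5′ end at -0.02 ± 0.13. ZEB1, a transcription factor of the mesenchymal state, fell by 0.27 (SE 0.05) with ZEB1-AS1 at -0.17 ± 0.15, and VIM by 0.14 (SE 0.05) with VIM-AS1 at -0.13 ± 0.20. For VIM-AS1 the SE exceeded the size of the partner's change, which was not detectable in it at this depth. These genes other than AP002387.1, THAP9-AS1, ZEB1-AS1 and VIM-AS1 and their partners were named after their values were seen.

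Whether a member moved differently from its partner was tested directly on their log ratio. Without pairs, none of the 225 members passed in limma (smallest adjusted p = 0.144, and 13 had an unadjusted p under 0.05), against 1 of all 830 pairs tested (0.12%). That pair was AL596325.2, an intronic gene in UAP1 that is too low to be a member, against UAP1 itself, whose ratio was higher in siUAP1 cells by 3.52 (SE 0.45, adjusted p = 0.00125). AL596325.2 had 38, 57 and 20 counts in control and 26, 32 and 21 counts in siUAP1 cells, a log2 fold change of -0.57 ± 0.33, where UAP1 fell by 4.02. With pairs, 3 members passed (1.33%), against 5 of 830 pairs (0.602%). They were LOXL1-AS1 against LOXL1, THAP9-AS1 against SEC31A (-0.55 ± 0.09, adjusted p = 0.011) and HAGLR against HOXD3 (1.28 ± 0.12, adjusted p = 0.000197). SEC31A lies on the same strand as THAP9-AS1, and the ratio to THAP9, on the other strand, was not fitted with pairs. HOXD3 averaged only 0.38 CPM, so the HAGLR ratio rests on few counts of its partner.

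The position of a member relative to its partner was compared as a description. In 88 members the 5′ ends overlapped (2 rose and 2 fell), in 60 the 3′ ends (2 rose and 1 fell), 42 lay inside the coding gene on the other strand (3 rose and 5 fell), 20 spanned it (none called), 36 were on the same strand (1 rose) and 49 had no coding overlap (4 rose and 2 fell), where 16.2% of all genes tested were called with pairs. Members inside a coding gene on the other strand had the highest correlation with it, r = 0.33 over 36 pairs. The table did not separate strands, so reads from the coding gene's introns and from a member inside it cannot be told apart. This limit also holds for KRT7-AS, AC099850.3, RGMB-AS1 and AC089983.1, which moved in the direction of their partners. For overlapping 5′ ends r was 0.04 over 86 pairs, for overlapping 3′ ends -0.06 over 55, for the same strand 0.15 over 33 and for members that span the gene 0.02 over 15. The positions' correlations were not tested against each other.

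**Figure D3:**
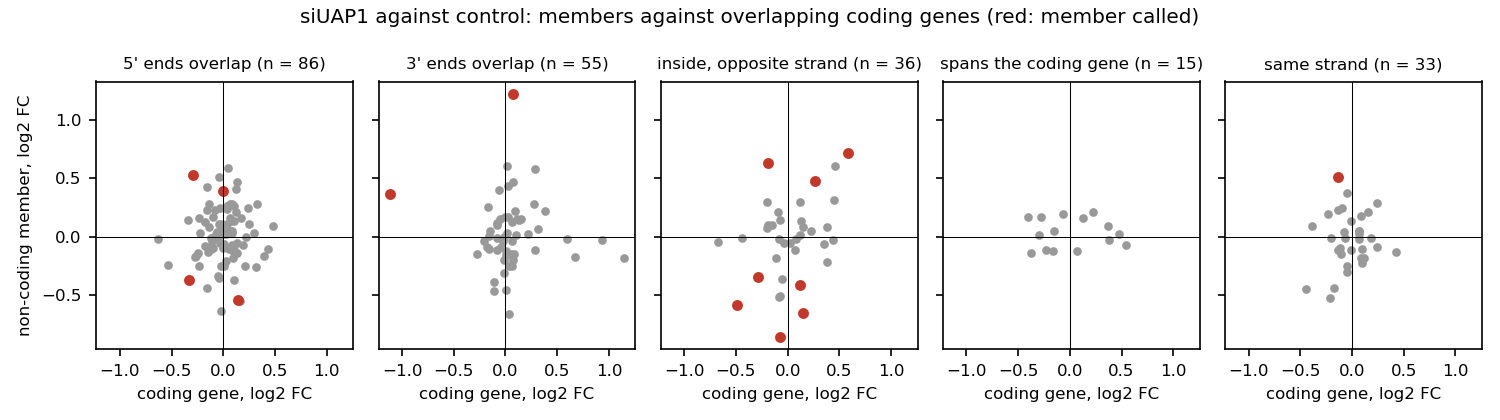
Log2 fold change of each member (y axis) against that of its overlapping coding gene (x axis), siUAP1 against control with pairs, in 5 panels by position; red points are called members. The points scatter around 0 in both directions, and KRT7-AS and AC099850.3 lie on the diagonal of the panel for members inside a coding gene.

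Divergent starts gave a like picture. In 20 members without coding overlap the start lay head to head with that of a coding gene, 1 to 585 bases away (median 122.5). AC105942.1, MHENCR and TGFB2-AS1 were the members called, ZYX, TGFB2 and WAPL were the coding genes called, and TGFB2-AS1 with TGFB2 was the shared case. Each is 3 of 20, against 16.2% of all genes tested with pairs. AC093673.1, the member next to ZYX, which encodes a focal adhesion protein, had a log2 fold change of 0.09 while ZYX fell by 0.16 (adjusted p = 0.0211).

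AL596244.1 belongs to a group of sense_overlapping genes that follow a coding gene. Of the 20 sense_overlapping members 14 had no coding overlap, and 13 of these lay 601 to 7761 bases beyond the 3′ end of a coding gene on the same strand. Fold changes had the same sign in 9 of the 13. The coding gene was called in 2 of the 13, TTLL11 and TSKU, and the member in 1, AL596244.1, against 16.2% of all genes tested with pairs. AP003119.3, which lies 2210 bases beyond TSKU, a secreted proteoglycan gene, was at 2.02, 2.67 and 2.29 CPM in control and at 3.62, 2.73 and 2.59 CPM in siUAP1 cells. Its log2 fold change of 0.34 ± 0.23 (adjusted p = 0.367) was of the same size as that of TSKU (0.34 ± 0.07, adjusted p = 0.000655).

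**Figure D4:**
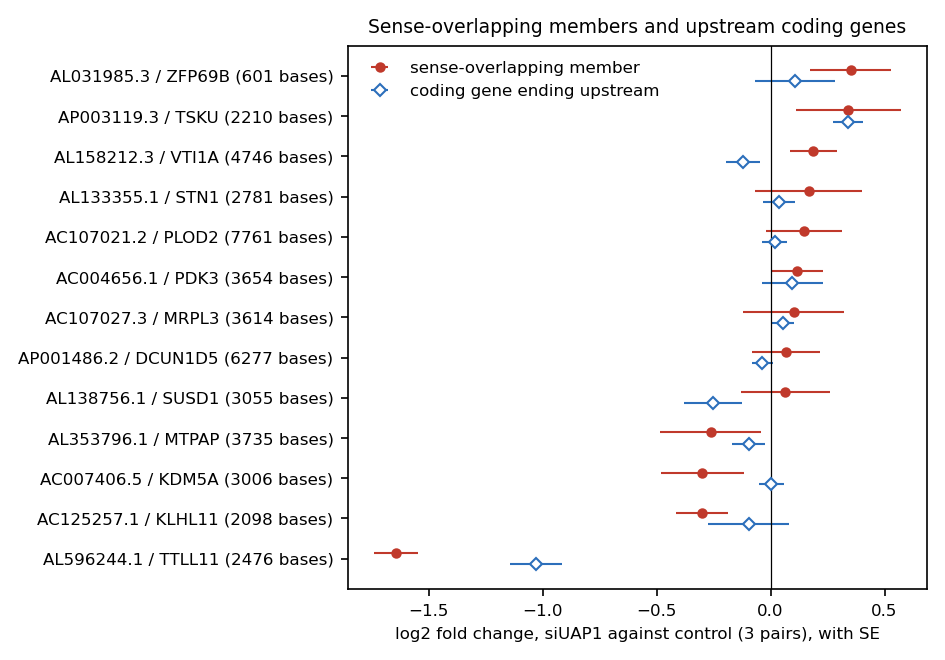
Log2 fold change (x axis, fit with pairs, bars ± SE) of the 13 sense_overlapping members beyond a coding gene (filled circles) and of that coding gene (open diamonds), with the distance in bases in each label. AL596244.1 at -1.64 and TTLL11 at -1.03 stand apart from the other pairs, whose members lie between -0.30 and 0.35.

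The range between replicate numbers was wider than the difference between groups for most members, at a share near that of all genes. Such a range spans more means than a group difference does. It therefore tends to be wider without any replicate effect, and the share does not show one. In 250 members (84.7%, and 82.6% of all genes tested) the range between numbers was wider than the difference between groups, with a median range of 0.51 against a median group difference of 0.15 on the log2 scale. LINC00622 had the widest range, 2.21, with 5.55 CPM in control replicate 1 and 6.45 CPM in siUAP1 replicate 1 against 0.878 to 1.77 CPM in the other 4 libraries. RUSC1-AS1 followed with 1.76, from 11.7, 11.4 and 3.38 CPM in control to 16.3, 6.74 and 4.55 CPM in siUAP1 cells, and its difference between groups was 0.03 ± 0.17. What the replicate number stands for is not stated in the labels.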

How the data were processed

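RNA of 6 ES2 libraries was analysed. The authors deposited raw counts per gene and FPKM values (counts per exonic length and library total). The submitters' processing notes list the build GRCh38.p12 and the tool DESeq2. Aligner, counting tool and strand setting are not stated there. Poly(A) selection and ribosomal RNA depletion are both named in the labels' protocols, without saying which was used, and the molecule is labelled polyA RNA. The 58735 genes had the same start, end and exonic length in GENCODE release 29, which gave exon overlaps. CPM are counts over column sums. The main test was edgeR 4.0.16 (R 4.3.3) on the counts: TMM, filterByExpr (15768 genes, minimum count 10, all 295 members kept), quasi-likelihood fit on the group, Benjamini-Hochberg adjustment over all genes, threshold 0.05. It was also run on simulated counts, without and with an assumed replicate effect, and that outcome is not used as support here. Replicate numbers come from the titles. Same-number libraries correlated at 0.552, 0.454 and 0.584 in their deviations from the group means, others at -0.434 to -0.0893. Centring on the group means pushes the others negative when the same-number values are positive, so they are no separate evidence. Library names of the same number also share a code, whose meaning is not stated. The fit with the number as a block is therefore printed beside the results. Log ratios of members to partners (log2 CPM, prior count 2) were fitted with limma 3.58.1 over 830 pairs. Replicate libraries of a group differed beyond counting noise (23.9 to 41.3 for chi-square over its degrees of freedom). Nothing says that replicates were separate cultures, and p-values then measure only the spread among these libraries, possibly technical. The genes described are UAP1, the 10 members of highest CPM, members called without pairs, the 12 of smallest p with pairs, members whose ratio was called, the neighbours of the 2 CPM limit, list members and their partners; others were named after their values were seen. Members and lists were chosen with earlier results of these data known. NUTM2A-AS1 and NUTM2B-AS1 are near-identical copies whose counts are uncertain.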

Additional observations from a re-analysis of the deposited data

How the results depend on the processing

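Of the members, 1 was called without pairs, and this became 22 with the replicate block (also 22 with RLE scaling, with library totals and with limma-voom, the latter pair chosen after seeing the data), 8 with the block in DESeq2, 2 in DESeq2 without it and 0 on log2(FPKM + 1) without a filter. Leaving out 1 library gave 0 to 1, and leaving out 1 pair with the block 10 to 19. The 22 were the same genes under all 3 of the block alternatives that also gave 22. Of the coding partners, 0 were called without pairs, 2 with no filter, 3 in DESeq2, 45 with the replicate block, 46 with the block and RLE, library totals or limma-voom, and 27 with the block in DESeq2. Leaving out 1 pair with the block gave 45, 32 and 27. Member-to-partner ratios went from 0 called members to 3 with the block, and to 0 to 1 without 1 library, the 1 being HAGLR without control replicate 1 or without siUAP1 replicate 3. The members' median log2 fold change stayed between -0.03 and 0.05 under every alternative run. Over the named genes' 2099 alternative values, none reversed in a call, 235 passed where the fit without pairs did not, and 2 no longer passed, both for AL596244.1 (-1.58 without siUAP1 replicate 2 and -1.30 on log2(FPKM + 1) without a filter, adjusted p = 0.0642 and 0.0806). The cause of these shifts was not tested. The members' median SE was 0.18 against 0.09 over all genes.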
